A study of Mus musculus with 15 samples.

Results

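The comparison described here asked which genes changed when SP600125 (SP) was added to mouse embryonic fibroblasts (MEFs) that were being converted towards induced myogenic progenitor cells (iMPCs). SP is an inhibitor of the c-Jun N-terminal kinases (JNKs). The comparison rests on 6 of the 15 bulk RNA-seq libraries of the series, 3 labelled +MyoD+F/R/C+SP and 3 labelled +MyoD+F/R/C, chosen by their treatment labels alone. All 6 came from primary MEFs of genotype Tg:Pax7-nGFP/C57BL6;DBA2. The cells were transfected 4 times with synthetic MyoD-mRNA in iMPC medium with B18R, a viral decoy receptor for type I interferon, and were collected on day 10. Both groups also received forskolin (F), which raises cyclic AMP, RepSox (R), a TGF-β receptor inhibitor, and CHIR99210 (C), a GSK3 inhibitor. SP was the only labelled difference between them. The 3 libraries with the JAK inhibitor CP690550 in place of SP (+MyoD+F/R/C+CP) entered the same fit and served as a second treated group. The libraries are called F/R/C 1 to 3, SP 1 to 3 and CP 1 to 3. The replicate number stands for a MEF line, each made from a single embryo and used in every group, and values are given in the order of lines 1, 2 and 3. The doses of the compounds are not given in the sources used here. Day 10 is the only time point of the treated groups, so neither a dose nor a time course can be read from these values.

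JNKs are stress-activated kinases that phosphorylate c-Jun and other subunits of AP-1. AP-1 is a family of dimeric transcription factors built from Jun, Fos, Atf and Maf proteins, and the genes of several subunits are themselves transcribed within minutes of a stimulus. Satellite cells are the stem cells of skeletal muscle. They are marked by the transcription factor Pax7 and held in the stem cell state in part by Notch signalling, whereas their progeny switch on Myog and then the contractile apparatus. Interferon response genes form the antiviral programme that cells switch on after sensing foreign RNA or after binding interferon. They are driven by a complex that holds Stat2 and Irf9, through its promoter element, the ISRE. SP600125 is also known as a ligand of the aryl hydrocarbon receptor, whose classical targets include Cyp1a1 and Cyp1b1.

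The 6 libraries held between 31178230 and 41885769 estimated counts each. SP 1 stood apart in that 24791 genes had a count, against 19576 to 21686 in the other 5 libraries. It also drew 5.06% of its counts from the mitochondrial genome, against 2.98% to 3.53%. SP 3 lay farthest from the rest on the first principal component of the 9 libraries. Levels are given in CPM, estimated counts scaled to library size with TMM factors. CPM is not divided by transcript length, so it compares libraries and not genes. Of the labelled origin, 30 fibroblast and matrix genes summed to 38202 to 43227 CPM in the SP libraries and to 36389 to 53830 CPM in the F/R/C libraries. The 49 muscle differentiation genes summed to 15676 to 18198 CPM and to 16523 to 25572 CPM, so both kinds of transcript were present in every library. In bulk samples such as these, fewer cells of a type and less RNA per cell cannot be told apart. Myod1, the delivered factor, was counted at 2887, 858 and 845 CPM in F/R/C and 1559, 1149 and 889 CPM in SP libraries, and these counts do not separate synthetic from endogenous transcripts (log2FC -0.087 ± 0.22, adjusted p = 0.890).

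Of the 18460 genes tested, 210 (1.14%) were called higher and 214 (1.16%) lower with SP. A call here means a Benjamini-Hochberg adjusted p of at most 0.05 from edgeR's quasi-likelihood test and a fitted log2 fold change over 0.5 in size. The p was adjusted over all genes tested, and the MEF line was a block in the fit. Log2FC is the fitted log2 fold change with SP minus without, and the value after ± is its standard error (SE). The median log2FC was 0.83 among the genes called higher and -0.73 among those called lower, and 81 and 53 of them exceeded 1 in size. Each of the 210 was higher, and each of the 214 lower, within all 3 MEF lines. A call from the blocked fit on 3 lines largely fixes this, so it is not separate support. Over all tested genes, 18.6% were higher and 19.5% were lower in all 3 lines. At a log2FC over 1 in size with an unadjusted p of at most 0.01, 151 genes (0.818%) were higher and 110 (0.596%) lower. The median log2FC over all genes tested was -0.013.

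The number of calls depended on the block and on single libraries. The fit without the block called 18 genes higher and 9 lower. The fits on all 15 libraries called none with edgeR, although 1747 genes had an unadjusted p under 0.05 in the fit with the block. DESeq2 with the block on the same 9 libraries called 406 and 384. There were 54 and 39 calls without SP 2, 61 and 54 without F/R/C 2, and 94 and 65 without SP 3. There were 132 and 107 without SP 1, 114 and 125 without F/R/C 1, and 174 and 132 without CP 3. Of the 424 genes, 71 (43 higher, 28 lower) stayed called in each fit without 1 library.

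**Figure D1:**
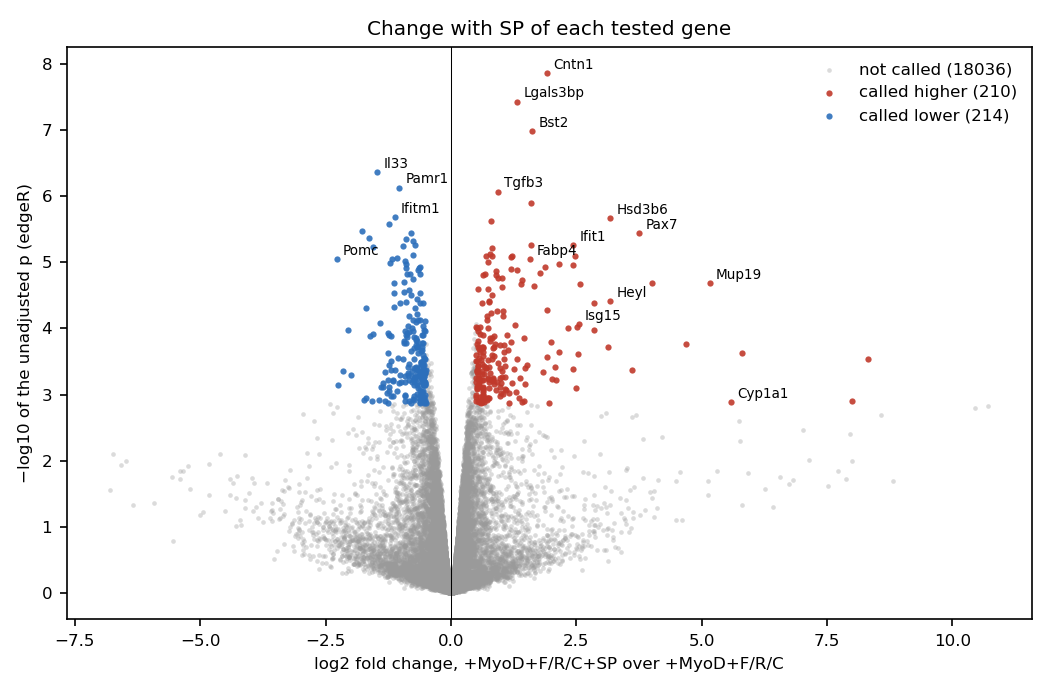
Fitted log2 fold change with SP (x axis) against −log10 of the unadjusted p (y axis) for the 18460 genes tested, with called genes in colour. The 210 genes called higher reach larger fold changes than the 214 called lower, and Cntn1, Lgals3bp, Bst2 and Il33 lie at the top.

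Interferon response genes were the gene list with the most calls in proportion to its size. Of 40 tested members, 20 were called higher and the other 20 did not pass the test, with a median log2FC of 1.37 beside -0.013 over all genes. The summed level of the 40 genes was 547 to 643 CPM in the F/R/C libraries, 955 to 1380 CPM in the SP libraries and 364 to 412 CPM in the CP libraries. All 3 SP libraries lay above all 3 F/R/C libraries for 34 of the 40 genes, beside 6.97% of all genes tested, and 7.55% of all genes lay the other way. The called members covered the sensor Ddx58 (log2FC 1.12) and the factors Stat2 (0.74), Irf9 (0.62) and Irf7 (1.87). They also covered the effectors Ifit1, Isg15 (2.55), Oasl2 (1.93), Rsad2 (2.07) and Bst2. Ddx58, Stat2, Irf9 and Rsad2 lost their calls without F/R/C 1 (adjusted p 0.0632 to 0.183). Ddx58, Stat2, Irf9, Isg15, Oasl2 and Rsad2 were not called without F/R/C 2 or SP 2 (adjusted p 0.0549 to 0.154). Irf9 did not pass the test without F/R/C 3, CP 1, CP 2 or CP 3 (adjusted p 0.0537 to 0.0632). Stat2, Irf9, Isg15 and Rsad2 lost their calls without SP 1 (adjusted p 0.0594 to 0.130).

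Bst2, which tethers budding virus to the cell surface, was measured at 15.6, 16.4 and 15.9 CPM in F/R/C and 54.2, 49.1 and 44.0 CPM in SP libraries. The libraries of a group lay close together and the groups did not overlap (log2FC 1.62 ± 0.13, adjusted p = 6.50e-04). Ifit1, which binds foreign RNA, was at 6.499, 4.32 and 7.96 CPM in F/R/C and 58.6, 29.3 and 20.2 CPM in SP libraries. Here the SP libraries spread widely above the F/R/C range (log2FC 2.44 ± 0.29, adjusted p = 0.00491). Usp18, a protease that removes Isg15 and damps interferon signalling, was at 7.05, 5.61 and 8.85 CPM without SP and 25.4, 20.02 and 19.0 CPM with it (log2FC 1.59 ± 0.19, adjusted p = 0.00491). Rtp4, another interferon-induced gene, stood at 3.40, 2.24 and 4.08 CPM without SP and 26.4, 14.2 and 13.9 CPM with it (log2FC 2.48 ± 0.31, adjusted p = 0.00491). B2m, the invariant chain of class I antigen presentation, was at 128, 119 and 126 CPM without SP and 247, 189.9 and 212 CPM with it. Its rise was smaller but regular over the lines (log2FC 0.79 ± 0.087, adjusted p = 0.00445). Lgals3bp, a secreted glycoprotein outside the list that interferon also raises, stood at 125, 122 and 122 CPM without SP and 352, 280.5 and 293 CPM with it (log2FC 1.32 ± 0.094, adjusted p = 3.48e-04). The calls of Bst2, Ifit1, Usp18, Rtp4, B2m, Irf7 and Lgals3bp stayed in each fit without 1 library.

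The size of the interferon change differed between the MEF lines. The median change of the 40 genes within a line, as log2 CPM with SP minus without, was 1.86 in line 1, 1.35 in line 2 and 0.66 in line 3. Line 3 had the smallest change for 32 of the 40. In spite of that spread, 40, 38 and 37 of the genes were higher with SP in lines 1, 2 and 3. The count of calls fell from 20 to 6 without F/R/C 2 or SP 2, to 9 without F/R/C 1 or SP 1, and to 6 without the block. The median log2FC stayed between 1.05 and 1.65 over the fits without 1 library. Oas1a, an RNA-activated synthetase, had the largest fitted log2FC of the list. It was listed at 0 in F/R/C 2 and 3 and did not pass the test (adjusted p = 0.0667). The peptide transporter Tap1 (log2FC 0.20 ± 0.12, adjusted p = 0.428) and the immunoproteasome subunit Psmb8 (0.43 ± 0.23, adjusted p = 0.365) did not pass either.

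**Figure D2:**
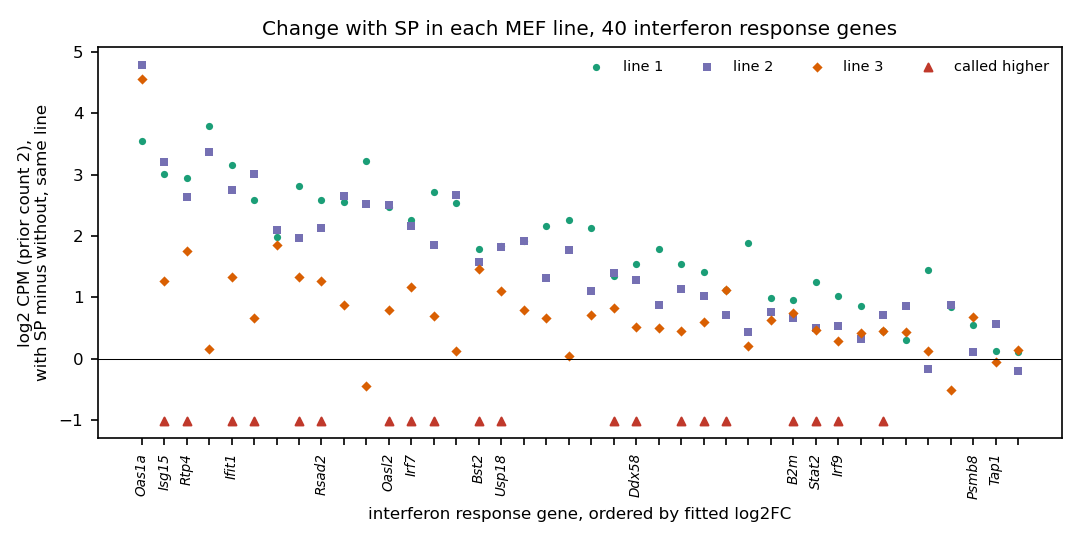
Change in log2 CPM (y axis, with SP minus without, prior count 2) within each MEF line for the 40 interferon response genes (x axis, ordered by fitted log2FC, with names for some genes), with triangles under the 20 genes called higher. Most points lie above 0 in every line, and line 3 is lowest for 32 of the 40 genes.

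The promoters of these genes were searched for the ISRE, spelled GAAANNGAAA, on both strands in the 250 bases before each start. Starts came from RefSeq's annotation of GRCm38.p6, where 12999 of 18442 tested symbols had a window. The motif was in the windows of 12 of the 29 interferon response genes that had one (41.4%). Within the list, 7 of 16 called members with a window (43.8%) and 5 of 13 that were not called (38.5%) held it. The motif was in 14 of 151 genes called higher (9.27%), and 7 of these 14 were the called members of the list. It was in 3 of 153 genes called lower (1.96%) and in 3.2% of all genes with a window. The element is a known feature of this gene family. The shares within the list and among the genes called higher are therefore descriptions only. The windows of the 7 called members that held a match are printed to show the matching letters and where they lie. Each is 30 bases of RefSeq sequence in the direction of its gene. Capitals mark the motif, shown as its reverse complement where it lies on the opposite strand.
B2m, chr2:122147538-122147567, gene on the plus strand, motif on the same strand: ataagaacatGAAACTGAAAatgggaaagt
Bst2, chr8:71537577-71537606, gene on the minus strand, motif on the same strand: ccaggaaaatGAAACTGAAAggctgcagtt
Gbp3, chr3:142559995-142560024, gene on the plus strand, motif on the opposite strand: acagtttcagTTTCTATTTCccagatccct
Ifit1, chr19:34640794-34640823, gene on the plus strand, motif on the opposite strand: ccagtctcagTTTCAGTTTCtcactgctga
Isg15, chr4:156200865-156200894, gene on the minus strand, motif on the same strand: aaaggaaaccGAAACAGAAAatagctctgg
Rsad2, chr12:26456553-26456582, gene on the minus strand, motif on the opposite strand: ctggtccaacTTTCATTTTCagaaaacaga
Stat2, chr10:128270266-128270295, gene on the plus strand, motif on the opposite strand: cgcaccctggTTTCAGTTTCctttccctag
In Bst2 and B2m the motif has the same 10 letters, and in Ifit1 and Stat2 the opposite strand carries them too. For comparison, the AP-1 site TGANTCA was also searched on both strands. It lay in the windows of 9.27% of the genes called higher, 7.84% of those called lower and 6.14% of all genes with a window. No window of the 16 AP-1 subunit genes with one held it.

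Satellite cell genes formed the next group, in which a few members changed by a large factor and most did not pass the test. Of 31 tested members, 6 were called higher, namely Pax7, Heyl, Hey1, Sox8, Fgfr4 and Met, and the median log2FC of the list was 0.24. Pax7, the defining transcription factor of satellite cells, was counted at 1.29, 0.711 and 0.305 CPM in F/R/C and 6.34, 21.4 and 5.31 CPM in SP libraries. Every SP library was above every F/R/C library, and SP 2 was the highest of the 3 (log2FC 3.76 ± 0.43, adjusted p = 0.00487). For reference, with all 15 libraries scaled together, Pax7 was at 0.114, 0 and 0 CPM in MEFs and 0, 0 and 0 CPM in +MyoD. The cells carry a Pax7-nGFP reporter transgene, and whether its transcript adds to the Pax7 counts was not tested.

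Heyl, a transcriptional repressor induced by Notch, was measured at 3.59, 0.5002 and 0.634 CPM in F/R/C and 12.6, 14.1 and 8.40 CPM in SP libraries. F/R/C 1 was above the other 2 control libraries, and all SP libraries were above F/R/C 1 (log2FC 3.17 ± 0.47, adjusted p = 0.00907). Hey1, its relative, was at 3.70, 1.61 and 0.704 CPM without SP and 8.08, 11.9 and 9.24 CPM with it (log2FC 2.52 ± 0.41, adjusted p = 0.0160). Sox8, a transcription factor found in satellite cells, was at 2.47, 0.948 and 0.704 CPM without SP and 5.31, 10.3 and 3.96 CPM with it (log2FC 2.33 ± 0.39, adjusted p = 0.0160). Fgfr4, an FGF receptor of myoblasts, stood at 7.90, 9.69 and 8.26 CPM without SP and 16.2, 46.8 and 16.6 CPM with it (log2FC 1.48 ± 0.29, adjusted p = 0.0295). SP 2 was thus well above SP 1 and SP 3, which still lay above the controls. Met, the receptor for hepatocyte growth factor, was at 21.2, 15.8 and 14.9 CPM without SP and 38.8, 25.1 and 22.2 CPM with it (log2FC 0.71 ± 0.11, adjusted p = 0.0140). Fgfr4 and Met lost their calls without F/R/C 1 (adjusted p 0.0572 to 0.0766). Hey1, Sox8 and Fgfr4 were not called without F/R/C 2 (adjusted p 0.0590 to 0.140). Hey1, Sox8, Fgfr4 and Met did not pass the test without SP 2 (adjusted p 0.0681 to 0.107). Sox8 and Fgfr4 lost their calls without SP 3 (adjusted p 0.0582 to 0.0741). The calls of Pax7 and Heyl stayed in each fit without 1 library.

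Other members of the list did not pass the test. Msc (musculin), a repressor of MyoD activity, was at 2.08, 0.474 and 1.46 CPM without SP and 3.90, 5.34 and 5.92 CPM with it (log2FC 1.99 ± 0.59, adjusted p = 0.106). Myf5, a determination factor, was at 0.987, 1.03 and 2.02 CPM without SP and 1.13, 2.95 and 1.09 CPM with it (log2FC 0.090 ± 0.63, adjusted p = 0.965). Pax3 was at 2.52, 0.0527 and 0.774 CPM without SP and 2.19, 0.459 and 0.258 CPM with it, with both groups spread over the same range. Without the block, edgeR called no member of the list and DESeq2 called 6. Over the fits without 1 library the count lay between 2 (without SP 2) and 8 (without F/R/C 3).

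The Notch pathway list shares Heyl and Hey1 with the satellite cell genes. It had 4 of 30 members called higher and 2 lower, with a median of -0.021. The ligand Jag1 was higher, at 31.6, 19.8 and 14.6 CPM without SP and 42.4, 27.3 and 30.7 CPM with it (log2FC 0.65 ± 0.14, adjusted p = 0.0368), as was the ubiquitin ligase Dtx4 (0.72 ± 0.16, adjusted p = 0.0476). The Deltex relative Dtx3 went the other way (-0.61 ± 0.12, adjusted p = 0.0286), as did the Notch inhibitor Dlk1. Dlk1 was at 525, 833 and 718 CPM without SP and 261, 557 and 338 CPM with it (log2FC -0.89 ± 0.11, adjusted p = 0.00510). The receptors and other effectors did not pass the test. Dtx4 and Dtx3 lost their calls without F/R/C 1 (adjusted p 0.0542 to 0.133). Jag1, Dtx4 and Dtx3 were not called without F/R/C 2, SP 1, SP 2, SP 3 or CP 3 (adjusted p 0.0510 to 0.180). Jag1 did not pass the test without F/R/C 3 or CP 2 (adjusted p 0.05002 to 0.0924). Dtx4 lost its call without CP 1 (adjusted p = 0.0565). The call of Dlk1 stayed.

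**Figure D3:**
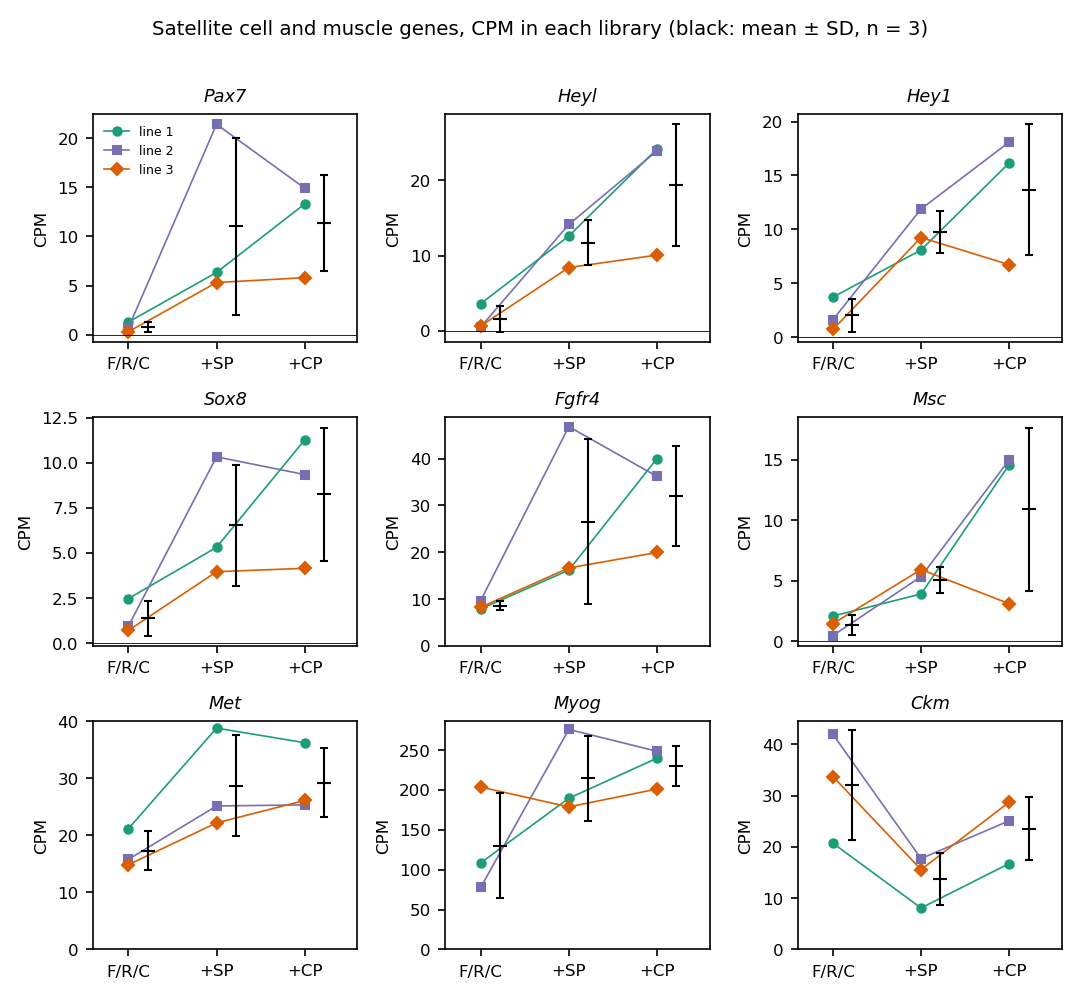
CPM (y axis) of 9 satellite cell and muscle genes in F/R/C, SP and CP libraries (x axis), with a line joining the 3 libraries of each MEF line and black bars for mean ± SD (n = 3). Pax7, Heyl, Hey1, Sox8 and Fgfr4 are higher in SP and CP than in F/R/C libraries, Myog overlaps between groups, and Ckm is lowest with SP.

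The 49 muscle differentiation genes had 4 calls, all of them lower with SP. Their median log2FC was -0.15. Ckm, the muscle creatine kinase, was at 20.7, 41.96 and 33.7 CPM without SP and 8.08, 17.7 and 15.6 CPM with it. It was lower with SP in each line by a similar factor (log2FC -1.24 ± 0.14, adjusted p = 0.00445). Tnni2, the fast troponin I, was at 89.0, 120.3 and 167 CPM without SP and 60.5, 85.0 and 74.2 CPM with it (log2FC -0.74 ± 0.13, adjusted p = 0.0179). Actn3, the fast-fibre α-actinin, stood at 394, 485 and 587 CPM without SP and 284, 363 and 348 CPM with it (log2FC -0.55 ± 0.093, adjusted p = 0.0176). Mybpc2, the fast myosin-binding protein C, was singled out after its values were seen and was at 9.27, 16.2 and 23.5 CPM without SP and 4.65, 8.07 and 4.89 CPM with it (log2FC -1.36 ± 0.29, adjusted p = 0.0340). All 4 called genes belong to the fast or adult contractile and energy apparatus. Acta1, skeletal α-actin, reached an adjusted p of 0.0202, but its log2FC of -0.50 fell short of the size required. The embryonic myosin Myh3 (-0.29 ± 0.13, adjusted p = 0.258) and the fast myosin Myh1 (0.016 ± 0.22, adjusted p = 0.980) did not pass the test.

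The muscle list was set largely by line 3. Its median change within a line was -0.068 in line 1, 0.057 in line 2 and -0.61 in line 3. The fitted median was 0.016 without line 3 and -0.028 without SP 3. The summed level without and with SP was 25572 and 17926 CPM in line 3, 16523 and 15676 CPM in line 1, and 18105 and 18198 CPM in line 2. Actn3 and Mybpc2 lost their calls without F/R/C 1 (adjusted p 0.0537 to 0.0736). Mybpc2 was not called without F/R/C 2, F/R/C 3 or SP 1 (adjusted p 0.0580 to 0.118). Tnni2, Actn3 and Mybpc2 did not pass the test without SP 2 or SP 3 (adjusted p 0.0615 to 0.0858). Actn3 fell short of the required size without F/R/C 3 (log2FC -0.46, adjusted p = 0.0359). Ckm kept its call throughout. Without F/R/C 3, 2 members were called higher and 2 lower, with a median of -0.020. The members called higher there, named after their values were seen, were the slow myosin Myh7 (log2FC 0.62 ± 0.11, adjusted p = 0.0198) and cardiac α-actin Actc1 (0.52 ± 0.12, adjusted p = 0.0437). The myogenic regulatory factors did not pass the test. Myog, which starts differentiation, was at 109, 77.8 and 204 CPM without SP and 189.6, 276 and 179 CPM with it, with F/R/C 3 level with the SP libraries (log2FC 0.76 ± 0.30, adjusted p = 0.212). Its log2FC was 0.34 without F/R/C 2. Myf6 was at 13.1, 18.7 and 17.1 CPM without SP and 12.3, 13.3 and 12.7 CPM with it (log2FC -0.33 ± 0.16, adjusted p = 0.314). Dmrt2, a factor upstream of Myf5, was at 2.06, 10.8 and 9.69 CPM without SP and 3.21, 12.9 and 5.99 CPM with it (log2FC 0.052 ± 0.29, adjusted p = 0.955). Of 28 regulatory and upstream factors none was called by edgeR, with 5 at an unadjusted p under 0.05 and 1 called by DESeq2. Of 26 myoblast fusion genes none was called by edgeR, with 6 at an unadjusted p under 0.05 and 2 called by DESeq2.

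The targeted pathway itself showed small transcript changes. None of 26 genes for JNK pathway kinases and scaffolds was called by edgeR or by DESeq2, and 3 had an unadjusted p under 0.05. Mapk8, which encodes JNK1, was at 38.3, 30.5 and 39.2 CPM without SP and 47.2, 36.9 and 37.0 CPM with it (log2FC 0.16 ± 0.11, adjusted p = 0.482). Mapk9, for JNK2, was at 56.7, 58.1 and 79.0 CPM without SP and 60.9, 56.4 and 69.0 CPM with it (log2FC -0.047 ± 0.11, adjusted p = 0.876). Mapk10, for JNK3, was at 5.65, 2.13 and 2.79 CPM without SP and 9.08, 2.66 and 2.93 CPM with it (log2FC 0.39 ± 0.34, adjusted p = 0.626). These are transcript levels and do not measure kinase activity or phosphorylation. Among 12 phosphatases and brakes of the pathway 1 was called. This was Gadd45g, a stress gene that binds upstream kinases, at 31.3, 44.7 and 33.2 CPM without SP and 40.7, 77.6 and 53.9 CPM with it (log2FC 0.63 ± 0.12, adjusted p = 0.0245). Gadd45g lost its call without F/R/C 1, F/R/C 2, SP 2 or SP 3 (adjusted p 0.0542 to 0.130). Dusp1, the main MAP kinase phosphatase of early responses, was at 115, 240.1 and 141 CPM without SP and 129, 218 and 221 CPM with it (log2FC 0.22 ± 0.13, adjusted p = 0.407).

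Of the 19 AP-1 subunit genes, 2 were called lower, Fosb and Junb, and 1 higher, and the list had a median log2FC of -0.27. Fosb was measured at 74.0, 272 and 162 CPM in F/R/C and 50.01, 145 and 106 CPM in SP libraries. Line 2 was highest in both groups, and the groups overlapped unless lines were paired (log2FC -0.70 ± 0.12, adjusted p = 0.0183). Junb was at 160.5, 461 and 179 CPM without SP and 113, 278 and 139 CPM with it, with the same pattern over lines (log2FC -0.54 ± 0.11, adjusted p = 0.0296). Fos was at 156, 518 and 219 CPM without SP and 125, 305 and 171 CPM with it and just missed the threshold (log2FC -0.49 ± 0.12, adjusted p = 0.0575). Its log2FC was -0.31 without F/R/C 2. Jun, the substrate that gives JNK its name, was at 259, 590.4 and 250.5 CPM without SP and 221, 383 and 254 CPM with it (log2FC -0.28 ± 0.12, adjusted p = 0.250). Its difference rested on line 2, since its log2FC was -0.099 without F/R/C 2. Jund (-0.41 ± 0.14, adjusted p = 0.160), Fosl1 (-0.32 ± 0.26, adjusted p = 0.576) and Fosl2 (-0.16 ± 0.12, adjusted p = 0.559) did not pass the test. Nor did Atf2 (0.17 ± 0.11, adjusted p = 0.476) or Atf3 (-0.27 ± 0.17, adjusted p = 0.459). Fosb and Junb lost their calls without F/R/C 2, SP 2 or SP 3 (adjusted p 0.0693 to 0.146). Junb was not called without SP 1 or CP 3 (adjusted p 0.0545 to 0.0896).

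AP-1 target genes gave no uniform direction, with 6 of 24 higher and 5 lower at an unadjusted p under 0.05. Of 24 AP-1 target genes, 2 were called higher, with a list median of 0.11. Mmp13, a collagenase and 1 of these, was at 39.98, 28.4 and 19.7 CPM without SP and 99.3, 56.9 and 47.7 CPM with it (log2FC 1.19 ± 0.15, adjusted p = 0.00491). It was higher with the JNK inhibitor in every line. Among 22 immediate early genes Egr1 was called lower, at 307, 843 and 459 CPM without SP and 251, 506 and 322 CPM with it (log2FC -0.52 ± 0.11, adjusted p = 0.0350). Klf4 was called higher, at 35.8, 52.5 and 45.6 CPM without SP and 60.4, 65.2 and 66.1 CPM with it (log2FC 0.53 ± 0.10, adjusted p = 0.0292). Klf4 lost its call without F/R/C 1 (adjusted p = 0.112). Egr1 was not called without F/R/C 2 or CP 3 (adjusted p 0.0635 to 0.146). Egr1 and Klf4 did not pass the test without F/R/C 3, SP 1, SP 2 or SP 3 (adjusted p 0.0553 to 0.178). None of 16 feedback genes of the ERK pathway was called by edgeR or DESeq2, with 4 at an unadjusted p under 0.05, Spry2 among them (-0.39 ± 0.091, adjusted p = 0.0494). In the cAMP target list, 1 of 20 genes was called, again Fosb, beside a median of 0.018.

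**Figure D4:**
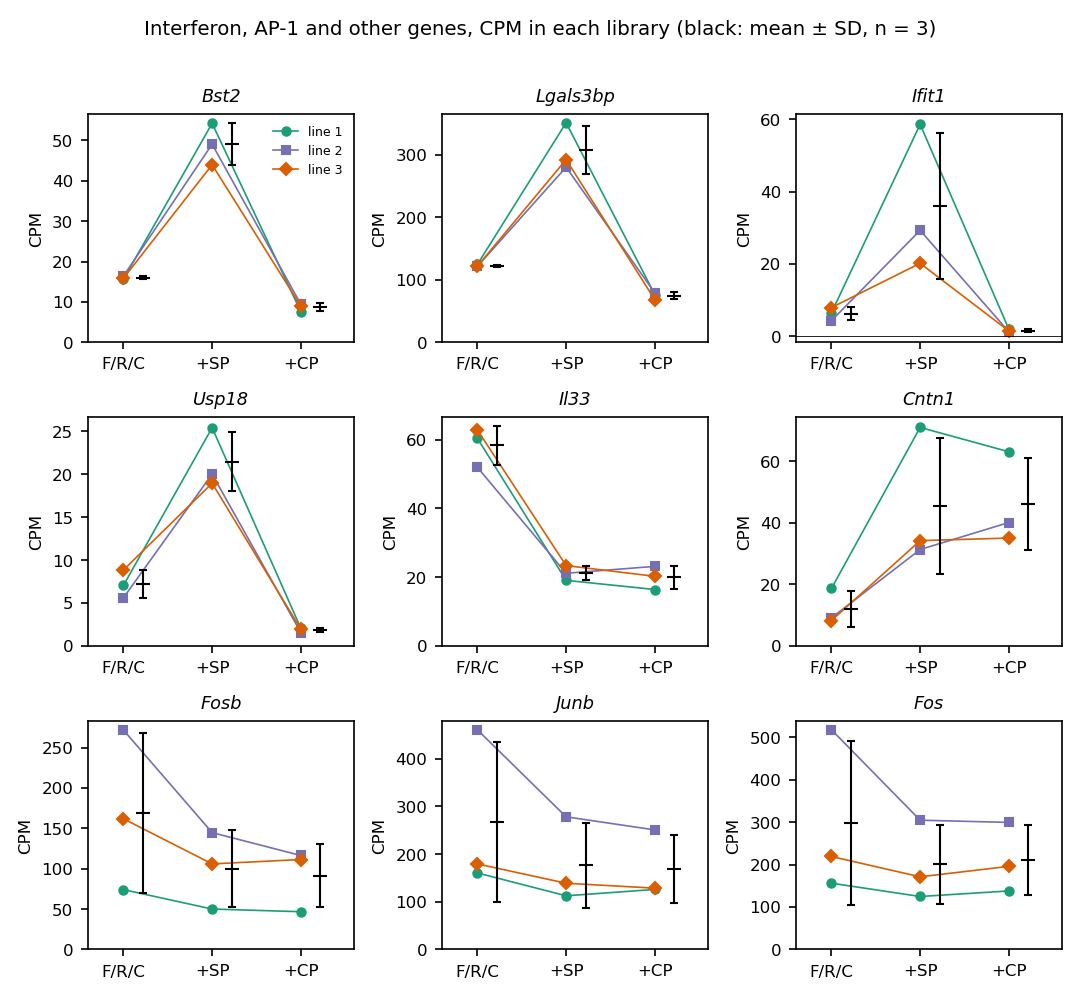
CPM (y axis) of interferon-related genes (Bst2, Lgals3bp, Ifit1, Usp18), Il33, Cntn1 and 3 AP-1 subunits (Fosb, Junb, Fos) in F/R/C, SP and CP libraries (x axis), with lines joining libraries of the same MEF line and black bars for mean ± SD (n = 3). The interferon genes rise with SP and are lowest with CP, while line 2 is highest for the AP-1 subunits in F/R/C libraries.

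Among 14 genes of the aryl hydrocarbon receptor battery 3 were called higher and 1 lower, beside a median log2FC of 0.068. At an unadjusted p under 0.05, 5 members were higher and 4 lower, so the list gave no uniform direction. Cyp1a1, the classical target, was at 0.302, 0 and 0 CPM in F/R/C and 3.85, 1.86 and 3.15 CPM in SP libraries. It was near 0 in all F/R/C libraries and low but present in each SP library (log2FC 5.58 ± 1.29, adjusted p = 0.0493). Its log2FC was 9.91 without F/R/C 1, whose few counts set the denominator. Cyp1b1, another P450 of this family, was at 148, 147 and 159.8 CPM without SP and 256, 252 and 221 CPM with it, with no overlap and a narrow spread (log2FC 0.68 ± 0.091, adjusted p = 0.00519). Nqo1, a quinone reductase, was at 15, 16.1 and 14.7 CPM without SP and 26.2, 21.8 and 40.1 CPM with it (log2FC 0.91 ± 0.19, adjusted p = 0.0339). Tiparp, a feedback inhibitor of the receptor, reached an adjusted p of 0.0417 at a log2FC of 0.42, under the size required. Cyp2s1 went the other way, at 19.4, 13.1 and 13.8 CPM without SP and 5.37, 5.12 and 3.25 CPM with it (log2FC -1.77 ± 0.20, adjusted p = 0.00487). The 15 NRF2 target genes, an oxidative stress set that shares Nqo1, had 2 called higher and a median of 0.26. The other was the cystine transporter Slc7a11, at 22.1, 9.82 and 11.3 CPM without SP and 58.2, 16.4 and 29.97 CPM with it (log2FC 1.19 ± 0.16, adjusted p = 0.00519). Nqo1 lost its call without F/R/C 1 (adjusted p = 0.105). Cyp1a1 and Nqo1 were not called without F/R/C 2, F/R/C 3, SP 1, SP 2 or SP 3 (adjusted p 0.0510 to 0.168). The calls of Cyp1b1, Cyp2s1 and Slc7a11 stayed.

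Genes of JAK/STAT and gp130 signalling were called only in the direction opposite to the interferon response genes. Of 23 members, 5 were called lower, with a median log2FC of -0.33. Jak3, a cytokine receptor kinase, was at 42.1, 70.1 and 58.9 CPM without SP and 24.1, 42.4 and 32.3 CPM with it (log2FC -0.80 ± 0.12, adjusted p = 0.00784). Cish, a feedback inhibitor induced by Stat5, was at 14.97, 26.7 and 26.9 CPM without SP and 8.94, 15.02 and 13.2 CPM with it (log2FC -0.87 ± 0.15, adjusted p = 0.0173). Socs3, a feedback inhibitor of gp130 receptors, was at 138, 203 and 142 CPM without SP and 89.1, 141 and 90.2 CPM with it (log2FC -0.60 ± 0.12, adjusted p = 0.0282). The groups overlapped for each of these 3, although each was lower with SP within all 3 lines. The kinase Pim1 also overlapped, at 15.6, 27.6 and 30.6 CPM without SP and 12.1, 15.5 and 16.2 CPM with it (log2FC -0.71 ± 0.15, adjusted p = 0.0321). Osmr, the oncostatin M receptor, did not overlap, at 215, 287 and 292 CPM without SP and 182, 176 and 184 CPM with it (log2FC -0.53 ± 0.11, adjusted p = 0.0350). Socs3 and Osmr lost their calls without F/R/C 1 (adjusted p = 0.0662 for both). Jak3, Cish, Socs3, Pim1 and Osmr were not called without F/R/C 2 (adjusted p 0.0510 to 0.143). Cish, Pim1 and Osmr did not pass the test without F/R/C 3 (adjusted p 0.0516 to 0.110). Cish and Socs3 lost their calls without SP 1 (adjusted p 0.0524 to 0.0879). Cish, Socs3, Pim1 and Osmr were not called without SP 2 or SP 3 (adjusted p 0.0529 to 0.181). Osmr did not pass the test without CP 3 (adjusted p = 0.0545). EdgeR called no member of the list without F/R/C 2, although the 5 kept an unadjusted p under 0.05.

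Secreted immune genes split in direction, with 2 of 22 cytokine and chemokine genes called higher and 2 lower. Il33, an alarmin of stromal cells, was at 60.4, 51.9 and 62.8 CPM without SP and 19.1, 21.1 and 23.4 CPM with it. The 3 SP libraries lay far below the controls (log2FC -1.47 ± 0.13, adjusted p = 0.00199), and the call held in 22 of 24 alternatives. Cxcl12, a chemokine that attracts CXCR4 cells, was at 136, 256 and 207 CPM without SP and 96.9, 140.4 and 110.4 CPM with it (log2FC -0.77 ± 0.15, adjusted p = 0.0297). Ccl2, which attracts monocytes, was at 52.2, 37.2 and 36.8 CPM without SP and 76.3, 60.6 and 91.7 CPM with it (log2FC 0.86 ± 0.15, adjusted p = 0.0208). Cxcl14, another chemokine, was at 14.3, 9.003 and 11.3 CPM without SP and 19.7, 16.8 and 24.5 CPM with it (log2FC 0.83 ± 0.15, adjusted p = 0.0244). In the complement list of 13, Serping1, the C1 inhibitor, was called lower at 184, 431 and 293 CPM without SP and 126, 176 and 164 CPM with it (log2FC -0.90 ± 0.13, adjusted p = 0.00907). The protease C1s1 was called lower (-0.84 ± 0.17, adjusted p = 0.0328) and the adipsin gene Cfd higher. Ifitm1, an interferon-related membrane protein that is not in the interferon list, went against it, at 54.7, 81.8 and 52.8 CPM without SP and 25.8, 31.4 and 28.5 CPM with it (log2FC -1.12 ± 0.12, adjusted p = 0.00441). Cxcl12, Ccl2, Cxcl14 and C1s1 lost their calls without F/R/C 2, F/R/C 3 or SP 3 (adjusted p 0.0501 to 0.147). Cxcl12 and C1s1 were not called without SP 1 (adjusted p 0.0651 to 0.0847). Cxcl12, Cxcl14, Serping1 and C1s1 did not pass the test without SP 2 (adjusted p 0.0712 to 0.159). C1s1 lost its call without CP 3 (adjusted p = 0.0521).

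Adipocyte genes had the second highest median of the lists. Of 13 members, 6 were called higher, with a median log2FC of 0.94. The list was not uniform, since its lowest log2FC was -1.52. At an unadjusted p under 0.05 there was 1 member lower, and 1 was lower in all 3 lines. Fabp4, a fatty acid carrier of fat cells, was at 18.9, 26.8 and 41.7 CPM without SP and 91.4, 75.1 and 86.3 CPM with it, with no overlap between groups (log2FC 1.59 ± 0.20, adjusted p = 0.00491). Adipoq, which encodes adiponectin, was at 2.33, 3.19 and 2.79 CPM without SP and 16.2, 12.004 and 8.98 CPM with it (log2FC 2.16 ± 0.28, adjusted p = 0.00512). Cfd was at 0.823, 0.816 and 0.915 CPM without SP and 4.76, 5.48 and 3.93 CPM with it, with close values within each group (log2FC 2.44 ± 0.31, adjusted p = 0.00512). The lipid droplet gene Plin1 was at 4.36, 5.48 and 10.2 CPM without SP and 26.8, 32.4 and 19.2 CPM with it (log2FC 1.99 ± 0.35, adjusted p = 0.0197). The factor Cebpa was at 11.96, 26.5 and 21.6 CPM without SP and 29.5, 50.3 and 28.2 CPM with it (log2FC 0.86 ± 0.16, adjusted p = 0.0245), and the last called member was the lipid droplet gene Cidec (2.44 ± 0.48, adjusted p = 0.0295). The summed level of the list overlapped, at 796 to 1415 CPM without SP and 1067 to 1364 CPM with it. Its median change was 1.54, 0.93 and 0.39 in lines 1, 2 and 3. The number called was 3 without F/R/C 1, SP 1, F/R/C 2 or SP 2. Plin1, Cebpa and Cidec lost their calls without F/R/C 1, F/R/C 2, SP 1 or SP 2 (adjusted p 0.0614 to 0.128). Outside the list, Hsd3b6, a steroid dehydrogenase from a family with near-identical copies, was at 1.26, 0.395 and 4.01 CPM without SP and 8.55, 6.42 and 35.8 CPM with it (log2FC 3.18 ± 0.34, adjusted p = 0.00441).

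Smooth muscle and cytoskeletal genes rose in part. Of 21 YAP and SRF target genes, 7 were called higher, with a median of 0.16. Lmod1, a leiomodin of smooth muscle, was at 29.7, 29.96 and 53.6 CPM without SP and 52.4, 60.7 and 83.2 CPM with it (log2FC 0.82 ± 0.10, adjusted p = 0.00491). Vgll3, a cofactor of TEAD proteins, was at 58.8, 51.1 and 57.4 CPM without SP and 134, 77.6 and 92.2 CPM with it (log2FC 0.83 ± 0.12, adjusted p = 0.00773). Crim1, a membrane protein that binds growth factors, was at 109, 96.1 and 171 CPM without SP and 168, 164 and 238 CPM with it (log2FC 0.62 ± 0.093, adjusted p = 0.00907). The contractile genes overlapped between groups, with F/R/C 3 high. Among them, smooth muscle α-actin Acta2 was at 781, 645 and 1579 CPM without SP and 1283, 1560.5 and 2072 CPM with it (log2FC 0.78 ± 0.16, adjusted p = 0.0303). The smooth muscle myosin Myh11 was at 151, 127 and 344 CPM without SP and 289, 291 and 466 CPM with it (log2FC 0.84 ± 0.17, adjusted p = 0.0323). Tagln (0.64 ± 0.14, adjusted p = 0.0413) and Actg2 (0.72 ± 0.16, adjusted p = 0.0459) were the others. The same 4 genes make up the calls above 0 in the smooth muscle and cardiac list of 13, in which the factor Gata4 was called lower (-1.43 ± 0.33, adjusted p = 0.0474). Acta2, Myh11, Tagln, Actg2 and Gata4 lost their calls without F/R/C 1, SP 1 or SP 3 (adjusted p 0.0664 to 0.154). Myh11, Tagln, Actg2 and Gata4 were not called without F/R/C 2 (adjusted p 0.0845 to 0.129). Gata4 did not pass the test without F/R/C 3, CP 1 or CP 2 (adjusted p 0.0575 to 0.181). Crim1, Acta2, Myh11, Tagln, Actg2 and Gata4 lost their calls without SP 2 (adjusted p 0.0660 to 0.185). Actg2 and Gata4 were not called without CP 3 (adjusted p 0.0568 to 0.0720). Actg2 had a log2FC of 0.47 without F/R/C 2.

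In the TGF-β target list 4 of 21 genes were called higher and 1 lower, beside a median of -0.0053. The ligand Tgfb3 was at 144, 131 and 205 CPM without SP and 259.8, 273 and 387 CPM with it, higher with SP in each line by a similar factor (log2FC 0.94 ± 0.092, adjusted p = 0.00265). Acta2 and Tagln, already given, were also among those called higher. Tgfbi, a secreted matrix protein, was lower, at 516, 417 and 388 CPM without SP and 341, 273 and 228 CPM with it (log2FC -0.66 ± 0.086, adjusted p = 0.00519). Lrrc32, the surface receptor that presents latent TGF-β, was at 187, 232 and 260.1 CPM without SP and 280.0, 390.5 and 523 CPM with it (log2FC 0.78 ± 0.10, adjusted p = 0.00491). Ccn2, another TGF-β and YAP target, did not pass the test (1.19 ± 0.32, adjusted p = 0.0813). The Wnt target list had 1 of 19 genes called. This was the receptor Tnfrsf19, at 28.5, 25.8 and 22.6 CPM without SP and 38.7, 40.1 and 32.0 CPM with it (log2FC 0.53 ± 0.11, adjusted p = 0.0357). Tnfrsf19 lost its call without F/R/C 1, F/R/C 2, F/R/C 3, SP 1, SP 2, SP 3, CP 2 or CP 3 (adjusted p 0.0537 to 0.161).

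The called proliferation genes were higher with SP by small amounts. Of 40 members, 8 were called higher, and the median log2FC was 0.33. Mki67, a marker of cycling cells, was at 83.4, 50.9 and 38.6 CPM without SP and 107, 78.6 and 58.1 CPM with it. The groups overlapped, but each line was higher with SP (log2FC 0.52 ± 0.10, adjusted p = 0.0268). Ccna2, which encodes cyclin A, was at 34.99, 20.98 and 16.8 CPM without SP and 44.7, 38.8 and 27.2 CPM with it (log2FC 0.64 ± 0.12, adjusted p = 0.0225). The kinesin Kif11 was at 26.7, 20.1 and 15.1 CPM without SP and 33.9, 33.2 and 26.7 CPM with it (log2FC 0.63 ± 0.12, adjusted p = 0.0283). Rrm2, a subunit of ribonucleotide reductase, was at 71.0, 39.9 and 42.9 CPM without SP and 87.9, 68.1 and 58.0 CPM with it (log2FC 0.50 ± 0.10, adjusted p = 0.0321). The remaining calls were the replication genes Mcm2 (0.57 ± 0.12, adjusted p = 0.0325) and Mcm3 (0.63 ± 0.14, adjusted p = 0.0435), Ccne1 (0.76 ± 0.16, adjusted p = 0.0370) and the checkpoint kinase Bub1 (0.75 ± 0.17, adjusted p = 0.0459). No member was called by edgeR without F/R/C 2, without SP 2 or without SP 3, although the 8 kept an unadjusted p under 0.05. There were 2 called without F/R/C 3 and 3 without CP 3, while the median stayed between 0.26 and 0.45 over the fits without 1 library. The summed level was 949 to 1541 CPM without SP and 1215 to 1655 CPM with it. In the p53 and stress list 1 of 20 genes was called higher, Asns, which makes asparagine under amino acid stress (0.65 ± 0.13, adjusted p = 0.0304). Asns lost its call without F/R/C 2, F/R/C 3, SP 2 or SP 3 (adjusted p 0.0535 to 0.143).

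Several matrix genes were lower with SP. Fbln1, a fibulin of the extracellular matrix, was at 672, 1149 and 625 CPM without SP and 332, 589 and 392.3 CPM with it (log2FC -0.89 ± 0.10, adjusted p = 0.00491). Mfap5, a microfibril protein, was at 9.60, 11.5 and 11.3 CPM without SP and 6.39, 4.28 and 2.90 CPM with it (log2FC -1.32 ± 0.26, adjusted p = 0.0297). These were the 2 of 30 fibroblast and matrix genes called lower, beside a median of -0.19. The median change within a line was -0.17 in line 1, -0.38 in line 2 and 0.13 in line 3. Without F/R/C 2 the fitted median was -0.038. Col1a2 had a log2FC of -0.41 ± 0.10, adjusted p = 0.0568 and did not pass. Outside that list, Mmp19, a metalloproteinase, was at 169, 187 and 167 CPM without SP and 103, 104 and 94.95 CPM with it (log2FC -0.79 ± 0.090, adjusted p = 0.00487). Crispld2, a secreted protein, was at 124, 117 and 116 CPM without SP and 66.5, 67.0 and 78.4 CPM with it (log2FC -0.75 ± 0.093, adjusted p = 0.00491). Pamr1, a secreted peptidase relative, was at 59.1, 93.7 and 90.3 CPM without SP and 32.4, 45.5 and 39.6 CPM with it (log2FC -1.03 ± 0.10, adjusted p = 0.00265). The collagen genes Col4a1 (log2FC 0.57) and Col4a2 (0.53) were called higher. Their calls stayed in 8 and 7 of the 12 fits without a library or line. Among 17 chondrocyte and bone genes 2 were called higher and 1 lower. Acan, the cartilage proteoglycan aggrecan, was higher at 0.356, 0.579 and 0.868 CPM without SP and 3.96, 4.40 and 4.54 CPM with it (log2FC 2.86 ± 0.48, adjusted p = 0.0164). Alpl, the alkaline phosphatase of bone, was also higher (1.27 ± 0.25, adjusted p = 0.0295), and Comp, a cartilage matrix protein, was lower (-1.70 ± 0.38, adjusted p = 0.0458). Alpl lost its call without F/R/C 1 (adjusted p = 0.0981). Mfap5, Acan, Alpl and Comp were not called without F/R/C 2, SP 2 or SP 3 (adjusted p 0.0566 to 0.215). Mfap5 and Comp did not pass the test without F/R/C 3 (adjusted p 0.0738 to 0.124). Alpl and Comp lost their calls without SP 1 (adjusted p 0.0911 to 0.118). Comp was not called without CP 3 (adjusted p = 0.0676).

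The genes with the smallest p values outside these lists included several membrane and secreted proteins. Cntn1, a neural adhesion protein, was at 18.6, 9.11 and 8.24 CPM without SP and 71.0, 31.3 and 34.2 CPM with it. SP libraries were above all controls, and line 1 was highest in both groups (log2FC 1.92 ± 0.12, adjusted p = 2.56e-04). Pcp4l1, a small calmodulin-related protein, was at 7.95, 2.97 and 6.52 CPM without SP and 20.7, 10.2 and 20.8 CPM with it (log2FC 1.60 ± 0.16, adjusted p = 0.00338). The calcium buffer Calb1 was at 42.7, 11.4 and 9.67 CPM without SP and 110.5, 19.2 and 28.5 CPM with it (log2FC 1.22 ± 0.15, adjusted p = 0.00491). It overlapped between groups, with line 1 high throughout. Ntn4, a netrin, was at 56.8, 41.99 and 70.3 CPM without SP and 88.4, 84.3 and 125 CPM with it (log2FC 0.82 ± 0.10, adjusted p = 0.00491). A pair of neuropeptide precursors stood among the decreases. Pomc, the precursor of corticotropin, was at 12.4, 8.11 and 7.49 CPM without SP and 2.601, 1.67 and 1.51 CPM with it (log2FC -2.28 ± 0.29, adjusted p = 0.00491). Pnoc, the precursor of nociceptin, was at 140.4, 179 and 193 CPM without SP and 29.8, 89.6 and 61.0 CPM with it (log2FC -1.63 ± 0.19, adjusted p = 0.00491).

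Further decreases were seen in enzymes and surface proteins. Suv39h1, a histone H3 lysine methyltransferase on the X chromosome, was at 173, 179 and 151 CPM without SP and 103, 103 and 100.0 CPM with it (log2FC -0.72 ± 0.085, adjusted p = 0.00491). Scara3, a scavenger receptor relative, was at 509, 589 and 616 CPM without SP and 289, 394 and 331 CPM with it (log2FC -0.76 ± 0.089, adjusted p = 0.00491). Galnt6, a mucin-type glycosyltransferase, was at 17.9, 37.0 and 27.5 CPM without SP and 5.45, 11.4 and 11.8 CPM with it (log2FC -1.56 ± 0.19, adjusted p = 0.00491). None of these 3 overlapped between groups. Serpinb1a, a protease inhibitor, was at 54.2, 79.1 and 125 CPM without SP and 30.4, 44.1 and 54.9 CPM with it (log2FC -0.95 ± 0.11, adjusted p = 0.00491). The protease Prss12 (-1.07 ± 0.13, adjusted p = 0.00491) and the P450 Cyp2d22 (-1.17 ± 0.15, adjusted p = 0.00491) also fell. Among the 10 largest fitted decreases of called genes of at least 1 CPM without SP, which also include Pomc, Cyp2s1, Comp and Pnoc, were Mgarp (-2.05 ± 0.34, adjusted p = 0.0164), Ece2 (-2.16 ± 0.43, adjusted p = 0.0297) and Tmem125 (-2.25 ± 0.48, adjusted p = 0.0350). Dupd1 (-1.98 ± 0.40, adjusted p = 0.0305), Naalad2 (-1.73 ± 0.39, adjusted p = 0.0476) and Ripor3 (-1.68 ± 0.26, adjusted p = 0.0105) were among them too. The calls of Suv39h1, Scara3, Galnt6, Serpinb1a, Prss12 and Cyp2d22 stayed in each fit without 1 library. Tmem125 and Dupd1 lost their calls without F/R/C 1 or SP 1 (adjusted p 0.0650 to 0.104). Mgarp, Ece2, Tmem125, Dupd1, Naalad2 and Ripor3 were not called without F/R/C 2 (adjusted p 0.0622 to 0.207). Tmem125 and Naalad2 did not pass the test without F/R/C 3 or CP 3 (adjusted p 0.0517 to 0.106). Mgarp, Ece2, Tmem125, Dupd1 and Naalad2 lost their calls without SP 2 (adjusted p 0.0699 to 0.197). Ece2, Tmem125 and Naalad2 were not called without SP 3 (adjusted p 0.0908 to 0.139). Naalad2 did not pass the test without CP 1 or CP 2 (adjusted p 0.0571 to 0.0605).

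The largest fitted increases came from genes that were almost silent without SP. Orm1, an acute-phase plasma protein, was at 0 counts in all 3 F/R/C libraries and held 119 counts over the 3 SP libraries. With F/R/C set to a floor of 3 counts over the group, it was at least 42.8-fold higher. The major urinary proteins are liver-type carriers of small lipophilic molecules, encoded by near-identical copies between which reads cannot be assigned with certainty. Of 16 tested members, 7 were called higher. Their summed level was 11.4, 3.98 and 6.36 CPM in F/R/C 1 to 3, 100.0, 54.2 and 80.0 CPM in SP 1 to 3, and 35.6, 18.3 and 40.9 CPM in CP 1 to 3. The family as a whole was therefore higher in every SP library than in any F/R/C library. Of its members, Mup19 stood at 0.439, 0.237 and 0 CPM without SP and 10.96, 4.01 and 9.01 CPM with it (log2FC 5.16 ± 0.71, adjusted p = 0.00615). Mup9 was at 0.658, 0.790 and 0.258 CPM without SP and 4.76, 13.1 and 10.5 CPM with it (log2FC 4.01 ± 0.55, adjusted p = 0.00615). Orm1 lost its call without F/R/C 1 (adjusted p = 0.0538). Mup18 and Orm1 were not called without F/R/C 2 (adjusted p 0.0718 to 0.0728). Mup11 did not pass the test without F/R/C 3 (adjusted p = 0.0578). Mup11, Mup18 and Orm1 lost their calls without SP 1 (adjusted p 0.0697 to 0.0834). Mup9, Mup7, Mup11, Mup18 and Orm1 were not called without SP 2 (adjusted p 0.0652 to 0.111). Mup7 and Mup11 did not pass the test without SP 3 (adjusted p 0.0713 to 0.0816).

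Few markers of other cell types that a MEF culture could hold were called, although some list medians lay away from 0. The median log2FC was 0.24 for macrophage, -0.28 for endothelial and -0.135 for epithelial genes. It was 0.26 for neuron genes and 0.51 for melanocyte and neural crest genes. The 10 macrophage genes summed to 22.4 to 27.8 CPM with SP and 19.2 to 36.0 CPM without it. Of them 1, Csf1r, was called higher, at 0.932, 0.579 and 0.657 CPM without SP and 2.10, 1.93 and 4.92 CPM with it (log2FC 1.95 ± 0.45, adjusted p = 0.0494). Csf1r lost its call without F/R/C 1, F/R/C 2, F/R/C 3, SP 1, SP 2, SP 3, CP 1, CP 2 or CP 3 (adjusted p 0.0605 to 0.174). The summed level of 10 endothelial genes was 9.82 to 22.1 CPM with SP and 15.1 to 21.5 CPM without it. That of 9 epithelial genes was 30.11 to 64.9 CPM and 30.04 to 46.7 CPM. No endothelial or epithelial gene was called by edgeR or DESeq2, with 0 and 1 at an unadjusted p under 0.05. Of 19 neuron genes none was called by edgeR, with 3 at an unadjusted p under 0.05 and 1 called by DESeq2. Their summed level was 366 to 805 CPM with SP and 250 to 724 CPM without it. Of 14 melanocyte and neural crest genes none was called by either tool, with 4 at an unadjusted p under 0.05. The part of any such cells in the results was not tested.

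Metabolic lists gave few calls. No gene of 20 in cholesterol synthesis was called by edgeR (6 at an unadjusted p under 0.05 and 1 by DESeq2), with a median log2FC of 0.23. The same held for 21 glycolysis genes (6 and 1), with a median of -0.16. Of 20 nuclear oxidative phosphorylation genes 1 was called, Cycs, which encodes cytochrome c (0.51 ± 0.11, adjusted p = 0.0339), with a median of 0.098. Of 13 mitochondrial genome genes 1 was called, mt-Nd2, at 1407, 1094 and 1204 CPM without SP and 3076, 1332 and 1655 CPM with it (log2FC 0.63 ± 0.14, adjusted p = 0.0491). Its log2FC was 0.42 without SP 1, the library with the highest mitochondrial share. The list summed to 51779 CPM in SP 1 and to 29928 and 35299 CPM in SP 2 and 3, against 29801 to 31160 CPM without SP. Its median of 0.38 moved with SP 1 and was 0.13 without line 1. Cycs and mt-Nd2 lost their calls without F/R/C 1, F/R/C 2, F/R/C 3, SP 1, SP 2, SP 3 or CP 3 (adjusted p 0.0525 to 0.174). mt-Nd2 was not called without CP 1 or CP 2 (adjusted p 0.0554 to 0.0606).

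**Figure D5:**
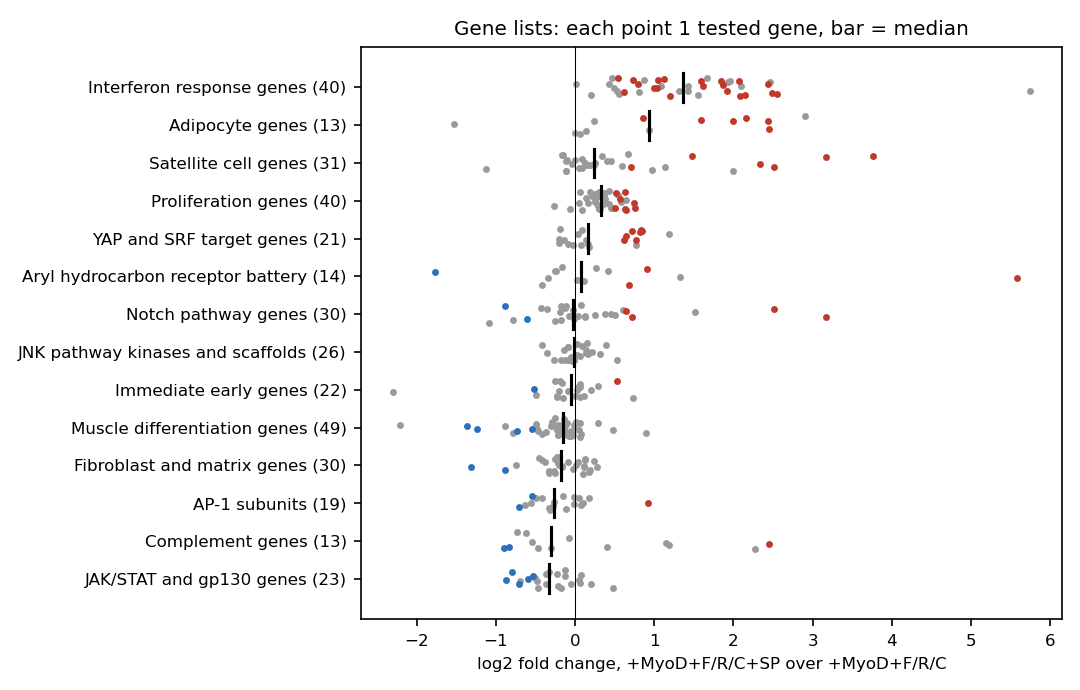
Fitted log2 fold change with SP (x axis) of each tested member of selected gene lists (y axis, number tested in parentheses), with called genes in colour and a bar at each list's median. Interferon response and adipocyte genes lie farthest to the right, with medians of 1.37 and 0.94, and JAK/STAT and gp130 genes lie to the left, with a median of -0.33.

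To see where SP differed from the other added inhibitor, the SP libraries were compared directly with the CP libraries in the same fit. Of the 18460 genes, 144 (0.780%) were higher with SP than with CP and 37 (0.200%) were lower. The 2 comparisons with F/R/C share their control libraries, so the levels are set side by side here and only the direct contrast, SP minus CP, is tested. The interferon response genes made up the clearest difference, with 31 of 40 members called higher with SP than with CP and a median log2FC of 2.39. Ifit1 was at 2.01, 1.25 and 1.48 CPM in CP 1 to 3, below its F/R/C levels (log2FC 4.46 ± 0.33, adjusted p = 1.10e-04). Rtp4 was at 0.595, 0.139 and 0.607 CPM (log2FC 5.41 ± 0.37, adjusted p = 1.10e-04) and Bst2 at 7.58, 9.44 and 8.98 CPM (log2FC 2.50 ± 0.13, adjusted p = 1.84e-05). Lgals3bp followed the same order, at 76.6, 79.2 and 68.4 CPM with CP (log2FC 2.04 ± 0.10, adjusted p = 1.06e-05). Usp18 (log2FC 3.54 ± 0.21, adjusted p = 3.67e-05) and Irf7 (log2FC 3.68 ± 0.27, adjusted p = 1.10e-04) also led this contrast. All 6 stayed called in each fit without 1 library.

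Of the 31 satellite cell genes 1 was called between the inhibitors, the adhesion molecule Vcam1, at 62.4, 97.8 and 116 CPM without SP and 98.5, 110.2 and 131 CPM with it, against 46.9, 55.4 and 74.9 CPM with CP (log2FC 0.96 ± 0.11, adjusted p = 0.00214). Its call stayed in each fit without 1 library. The satellite cell genes called higher against F/R/C did not pass the test between the inhibitors. Pax7 was at 13.3, 14.9 and 5.80 CPM in CP 1 to 3 (log2FC -0.13 ± 0.36, adjusted p = 0.942). Heyl was at 24.2, 23.9 and 10.1 CPM (log2FC -0.64 ± 0.40, adjusted p = 0.630) and Hey1 at 16.2, 18.1 and 6.71 CPM (log2FC -0.32 ± 0.38, adjusted p = 0.828). Sox8 was at 11.3, 9.35 and 4.15 CPM (log2FC -0.27 ± 0.35, adjusted p = 0.852) and Fgfr4 at 39.98, 36.2 and 19.9 CPM (log2FC -0.38 ± 0.28, adjusted p = 0.700). These errors are wide, so a test that is not passed does not show that the inhibitors act alike on these genes. Msc was at 14.6, 14.98 and 3.10 CPM, higher in CP 1 and CP 2 than in any SP library, and did not pass either (log2FC -0.98 ± 0.57, adjusted p = 0.580). Il33 was at 16.4, 23.1 and 20.2 CPM with CP (log2FC 0.090 ± 0.13, adjusted p = 0.876). Cntn1 was at 63.1, 40.1 and 35.02 CPM (log2FC -0.074 ± 0.12, adjusted p = 0.887) and Pomc at 1.09, 1.45 and 0.945 CPM (log2FC 0.70 ± 0.29, adjusted p = 0.403).

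Other genes were called between the inhibitors. Dlk1 was lower with SP than with CP, where it was at 559, 840.0 and 603 CPM (log2FC -0.84 ± 0.11, adjusted p = 0.00608). Inmt, an indole methyltransferase, was at 31.8, 30.8 and 29.9 CPM without SP and 11.1, 15.6 and 13.6 CPM with it, against 25.1, 27.1 and 36.8 CPM with CP (log2FC -1.13 ± 0.15, adjusted p = 0.00625). Ckm, at 16.8, 25.1 and 28.7 CPM with CP, was also lower with SP (log2FC -0.81 ± 0.14, adjusted p = 0.0186). The stromal progenitor marker Islr (log2FC -0.70 ± 0.10, adjusted p = 0.00777) and the secreted semaphorin Sema3b (log2FC -0.77 ± 0.13, adjusted p = 0.0182) were lower as well. Mmp13 was higher with SP than with CP, where it was at 31.6, 19.0 and 23.4 CPM (log2FC 1.41 ± 0.15, adjusted p = 0.00138). So was Cyp1b1, at 141, 138 and 149.7 CPM (log2FC 0.77 ± 0.091, adjusted p = 0.00264), and B2m, at 118, 105 and 119.8 CPM (log2FC 0.92 ± 0.087, adjusted p = 6.23e-04). Acan (log2FC 2.56 ± 0.47, adjusted p = 0.0300), Fabp4 (log2FC 1.01 ± 0.19, adjusted p = 0.0391) and Slc7a11 (log2FC 0.89 ± 0.16, adjusted p = 0.0240) moved the same way. Ckm, Acan, Fabp4 and Slc7a11 lost their calls without SP 1 (adjusted p 0.102 to 0.169). Ckm, Acan and Fabp4 were not called without SP 2 (adjusted p 0.0550 to 0.146). Ckm, Islr, Sema3b, Acan and Slc7a11 did not pass the test without SP 3 (adjusted p 0.0506 to 0.118). Ckm, Islr, Fabp4 and Slc7a11 lost their calls without CP 1 (adjusted p 0.0540 to 0.171). Sema3b, Acan, Fabp4 and Slc7a11 were not called without CP 2 (adjusted p 0.0507 to 0.120). Ckm, Sema3b, Acan, Fabp4 and Slc7a11 did not pass the test without CP 3 (adjusted p 0.121 to 0.184). Dlk1, Inmt, Mmp13, Cyp1b1 and B2m stayed called between the inhibitors in each such fit.

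A group of melanocyte genes was lower with SP than with CP, none of them called against F/R/C. Dct was at 0.439, 0 and 0.0235 CPM without SP and 1.27, 0.266 and 0.129 CPM with it, against 9.22, 14.4 and 8.13 CPM with CP (log2FC -4.89 ± 0.76, adjusted p = 0.0122). Sox10 (log2FC -1.61 ± 0.29, adjusted p = 0.0267), Pmel and Tyrp1 were the other members. Sox10 lost its call without SP 1 (adjusted p = 0.0808). Dct and Sox10 were not called without SP 2 or SP 3 (adjusted p 0.0540 to 0.120). Dct, Sox10 and Tyrp1 did not pass the test without CP 2 or CP 3 (adjusted p 0.0561 to 0.204). The count higher with SP than with CP fell to 65 without the block. It fell to 70, 84 and 73 without CP 1, CP 2 and CP 3, and to 75 and 85 without SP 1 and SP 2. The count lower lay between 9 (without CP 3) and 54 (without F/R/C 3).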

How the data were processed

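RNA was poly-A selected, made into stranded libraries and sequenced single-end. Per the study's methods and the submitters' processing notes, reads were demultiplexed with bcl2fastq 2.20, trimmed with fastp 0.20.0 and pseudo-aligned to GRCm38.p6 with kallisto 0.46.1. The authors deposited estimated counts per transcript, not normalized, and TPM, which were used here only to scale counts by length in an alternative. Of 121843 transcripts, 121104 were matched to genes of GENCODE M21, and the values of a gene are the rounded sums over its transcripts. Unmatched transcripts took 0.236% to 0.327% of counts. Pseudo-alignment shares reads among similar transcripts, so near-identical copies are uncertain.

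Genes were filtered with edgeR's filterByExpr (minimum count 10, minimum total 15), scaled by TMM and fitted with the quasi-likelihood test of edgeR 4.0.16 (R 4.3.3) on the 9 libraries with F/R/C, with MEF line as a block. CPM values carry the TMM factors. Fold changes within a line use log2 CPM with a prior count of 2. The standard error is the size of the log2FC over the square root of its F statistic. The pairing comes from the study's methods. Same-line libraries deviated together from their group means, with a correlation of 0.14 on average (0.062 to 0.24 over 9 pairs). The average between lines was -0.069 (18 pairs). Centring on the group means largely fixes that value, so it is not separate support. Replicates are separate MEF lines, and no pair of libraries agreed within sampling noise. All comparisons of SP with F/R/C or CP used this fit, and the 36 gene lists were described by counts and medians only.

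Named genes were those the study names for SP, the called genes with the smallest p or largest log2FC with a mean of at least 1 CPM, AP-1 subunits and JNK genes, up to 4 members of each list by p with called members moving against its median, and the leading genes of SP against CP. Genes outside this rule were named after their values were seen. The lists, the members and the choice of fit were made with earlier results of these data known. On simulated counts for the 18460 genes of SP against F/R/C, edgeR recovered 58 of 100 genes changed by a log2FC of 1. It recovered 84 of 100 changed by 2, and called 10 of 17885 unchanged genes. These counts were drawn from the spread of the same fit. They hold no outlying library and cannot test the choice of fit. DESeq2 1.42.0, other scalings, filters, designs and leaving out each library or line were alternatives. A few named genes of these lists are counted in the totals and not reported here.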

Additional observations from a re-analysis of the deposited data

How the results depend on the processing

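The main counts were 210 genes higher and 214 lower with SP. The 9 libraries with no replicate block gave 18 and 9, all 15 libraries gave 0 and 0 with the replicate block (1747 genes at an unadjusted p under 0.05) and 0 and 0 without it (1280), and the 6 libraries alone gave 92 and 87. DESeq2 gave 406 and 384 with the replicate block and 138 and 121 with no replicate block, no filter on low counts gave 537 and 447, and counts scaled from TPM by length gave 61 and 43. Leaving out a library or a line gave 6 to 242 higher and 5 to 207 lower, the lowest without line 2. At a log2FC over 1 with an unadjusted p of at most 0.01 the counts were 87 and 58 for all 15 libraries with the block, 79 and 54 without it, 250 and 191 with no filter, and 168 lower for DESeq2 with the block, and leaving out libraries gave 66 to 141 lower. For SP against CP the counts were 65 and 6 with no block, 36 and 0 for all 15 libraries with the block, 38 and 0 without it, 256 and 136 for DESeq2 with the block, 336 and 225 with no filter, 77 and 15 from TPM-scaled counts, and 31 to 179 higher and 2 to 54 lower when a library or line was left out. The cause of these differences was not tested, except that fits without a library or line hold fewer samples.

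RLE or upper-quartile scaling, a mean of at least 50 counts and leaving out mitochondrial genome genes changed no count of SP against F/R/C by over 1.5 times. No called gene changed sign in an alternative that tested it. The call largely fixes this, since each called gene had 1 sign in all 3 lines. Many genes that did not pass the test changed sign in at least 1 alternative. They included Fosl1, Mapk9, Mapk10, Myod1, Dmrt2, Myf5 and Myh1, and this is not a full list. With 3 lines a group and 4 residual degrees of freedom, a call that is missing does not show that a gene is unchanged.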
